A study of Homo sapiens with 8 samples.

Results

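The regions described here are 252 FLI1 ChIP-Seq peaks of VAL replicate 1 that were matched by no passing peak of VAL replicate 2 or of OCI-Ly1 replicate 2. They were chosen on the -log10 q of the peak lists: a peak passed with a value of at least 3, and a match was an overlap of at least 1 bp with a passing peak. In VAL replicate 1, 973 of 237178 listed peaks passed (0.410%), and the unmatched peaks were 25.9% of these 973. Of the others, 586 had a passing peak in both other libraries and are called shared peaks, 91 had one in VAL replicate 2 only and 44 in OCI-Ly1 replicate 2 only.

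VAL and OCI-Ly1 are established cell lines of germinal centre B-cell (GCB) diffuse large B-cell lymphoma, grown without a treatment that the labels name. FLI1-bound chromatin was isolated with 1 rabbit polyclonal antibody in 2 replicates per line, beside 4 samples of input DNA that were not analysed here. Each replicate is 1 library of 1 line, so nothing below compares conditions. VAL replicate 2 held 6474 passing peaks and OCI-Ly1 replicate 2 held 5354, while the list of OCI-Ly1 replicate 1 consists of 37 intervals, 33 of them longer than 1 Mb, and was not used to choose the regions.

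FLI1 belongs to the ETS family of transcription factors, whose shared DNA-binding domain reads a core of GGAA within a longer preferred sequence. In blood cells FLI1 takes part in the control of haematopoietic genes, and many ETS sites lie in CpG-rich promoters close to transcription start sites (TSS). The motif sought here was CCGGAAR, that is CCGGAAA or CCGGAAG on either strand. Both forms contain GGAA.

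Among the unmatched peaks, 7 of 252 held CCGGAAR within 50 bp of the summit. Their sequences are shown because they are the only ones in which this motif lay that close to an unmatched summit. Each is a run of 30 bases from GRCh37, read 5′ to 3′ on the strand that carries the motif, with the motif in capitals.
POFUT2, chr21:46707795-46707824, minus strand: ggggcgcggccgCCGGAAGtgcgtggccgc
ADAT2, chr6:143771863-143771892, minus strand: attagactacccCCGGAAAcggggtcccgg
TMEM234, chr1:32687965-32687994, plus strand: agacccataatCCGGAAGtgacctcgaaac
GFOD2, chr16:67753375-67753404, minus strand: ccgcctccgccgCCGGAAAtgaataacctg
RPS24P13, chr10:32522464-32522493, plus strand: ccacctccctcCCGGAAGgggcggctggcc
Within PCGF3, chr4:752908-752937, minus strand: aagacccggagtCCGGAAGgagaagaactc
SART1, chr11:65729141-65729170, minus strand: gctgtcgtgttgCCGGAAActaagagcggc

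The motif centres lay 1 to 35 bp from the summits. In 4 of the 7 windows the motif occurred once, in the PCGF3 and SART1 windows 2 times and in the TMEM234 window 3 times. All 7 peaks were within 3 kb of an annotated TSS, and 5 of these were TSS of protein-coding genes. The peak in PCGF3, a gene of a Polycomb complex subunit, was the only one of the 7 in which most of the 31-base words around the summit recurred in the genome, with a median of 18 copies.

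Far more of the unmatched summits carried sequence that recurs in the genome. Unmatched peaks were grouped where they had at least 5 words of 31 bases in common within 50 bp of their summits. The 3 largest groups held 20, 13 and 6 peaks, and the peaks of the largest lay on 12 chromosomes. No repeat annotation was used here, so the groups are left unnamed. In all, 66 of 252 unmatched peaks (26.2%) fell into 14 such groups of 2 to 20 peaks, and 186 shared no such words with another. Groups were formed for the unmatched peaks alone, so this share has no comparison with other peaks.

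The unmatched peaks were weak in the library that chose them. Their -log10 q ranged from 3.0 to 42.4 with a median of 3.64, and 217 of 252 were under 5, while the shared peaks had a median of 6.34. How many reads lie at a summit, and how many its surroundings would give, follows from the fold and the p-value of a peak. An unmatched summit had a median of 11 reads over a local background of 1.0, a shared summit 20 reads over 2.51. Median fold enrichment was nearly the same, 5.52 and 5.58. These values were used by the rule and are given without a test.

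The share of unmatched peaks was highest near the threshold. Where the -log10 q was from 3 to 4, 174 of 339 passing peaks were unmatched (51.3%), and of those at 10 or more, 3 of 164 (1.83%). The 3 weakest unmatched peaks, at chrX:134866141-134866437, chr8:51483625-51484117 and chr18:76245579-76246565, had a -log10 q of 3.001 with 14 reads and a fold of 4.49. The strongest peaks that missed the threshold and overlapped no passing peak of the other libraries had 2.997 with 13 reads and a fold of 4.65.

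A name such as "seen only in replicate 1" would go further than the lists do. At 186 of the 252 regions, a peak below the threshold was listed in at least 1 other library: at 105 in both, at 43 in VAL replicate 2 only and at 38 in OCI-Ly1 replicate 2 only. In VAL replicate 2, 148 regions had a listed peak (58.7%), against 27.4% of the same intervals moved by 10 kb. In OCI-Ly1 replicate 2 it was 143 regions (56.7%), against 32.5%. These listed peaks had a median -log10 q of 0.952 in VAL replicate 2 and 0.827 in OCI-Ly1 replicate 2, and in each library a median of 3 reads at the summit, where at least 6 reads were needed to pass. The remaining 66 regions (26.2%) had no listed peak in either library.

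**Figure D1:**
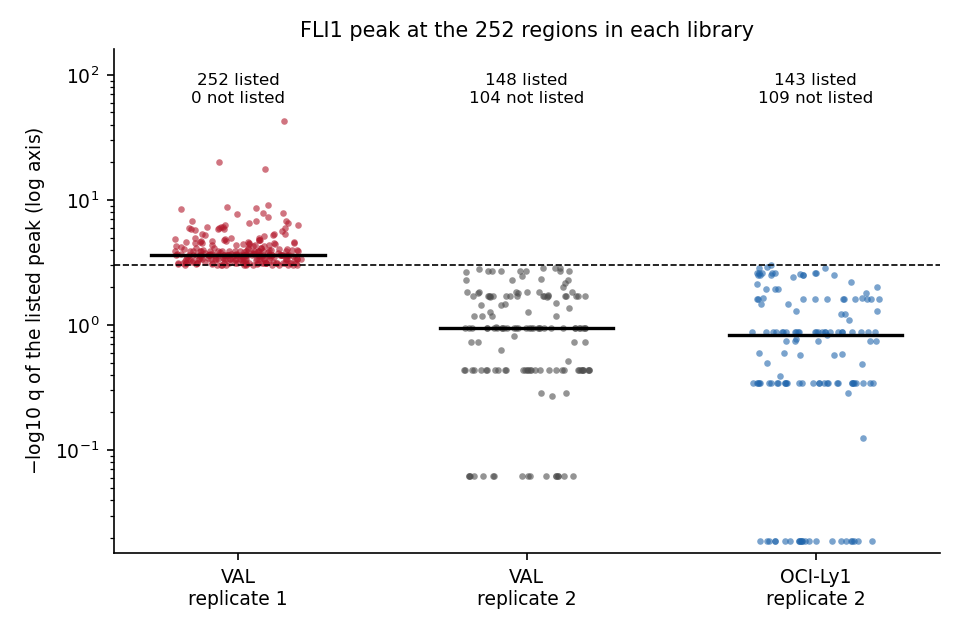
The -log10 q of the FLI1 peak at the 252 regions (log axis) in VAL replicate 1, which chose them, and of the listed peak that overlaps them in VAL replicate 2 and OCI-Ly1 replicate 2, 1 point per peak, with the median as a bar and the threshold of 3 dashed. By construction all points of the first library are above the threshold and all of the others below it, and 104 and 109 regions have no listed peak in VAL replicate 2 and OCI-Ly1 replicate 2.

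Some of the regions missed a match narrowly. The peak at the promoter of SART1, which encodes a splicing factor of the tri-snRNP, had a -log10 q of 3.14 in VAL replicate 1, 2.149 in VAL replicate 2 and 2.874 in OCI-Ly1 replicate 2. The peak 115 bp from a TSS of STAT2, a transcription factor of interferon signalling, had 4.01, 1.725 and 2.887. At chr8:86808453-86808934 the values were 5.83, 2.840 and 2.989. In the other direction, the peak at chr5:69516413-69516620 counted as matched with 3.205 in VAL replicate 2 and 0.827 in OCI-Ly1 replicate 2.

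What the sequence can show without the q-values is whether the unmatched summits held CCGGAAR, which is 1 form of an ETS site. The motif CCGGAAR lay within 50 bp of 7 of 252 unmatched summits (2.78%, Wilson 95% interval 1.35 to 5.62) and in 3 of 252 control windows of the same length centred 250 bp downstream (1.19%, 0.406 to 3.44). This difference did not pass the two-sided exact McNemar test (p = 0.289). It did so over the 343 peaks that are unmatched when VAL replicate 2 is left out (5.25 percentage points, exact McNemar p = 2.77e-04). Those include the 91 peaks matched in VAL replicate 2 only, which hold 16 of the 23 peaks with the motif. With GGAA as the motif, the difference over the 252 peaks turned to -7.54 points (p = 0.0785 by the same exact test). At the shared summits the motif was present in 321 of 586 (54.8%, 50.7 to 58.8), and the unmatched peaks had it less often (two-sided Fisher exact test, Benjamini-Hochberg adjusted over 3 tests, p = 1.60e-55). Of all windows of 101 bp that tile the genome, 0.403% held the motif.

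The core GGAA alone was present at 123 of 252 unmatched summits (48.8%) and at 92.8% of the shared summits. Among the listed peaks of VAL replicate 1 that did not pass, of which every 100th was examined, 50.5% of 2363 held GGAA and 1.27% held CCGGAAR. The peaks matched in 1 library only lay between the unmatched and the shared ones, with CCGGAAR at 15.9% of the 44 in OCI-Ly1 replicate 2 and 17.6% of the 91 in VAL replicate 2.

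By strength, CCGGAAR was held by 3 of 174 unmatched peaks with a -log10 q from 3 to 4 (1.72%), 2 of 43 from 4 to 5 (4.65%), 2 of 24 from 5 to 7 (8.33%) and none of the 11 at 7 or more, while among shared peaks with a -log10 q from 3 to 4 it was 63 of 112 (56.2%). Restricted to a -log10 q from 3 to 10 in both classes, the difference was -53.6 percentage points (Fisher exact test, adjusted p = 1.88e-53).

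**Figure D2:**
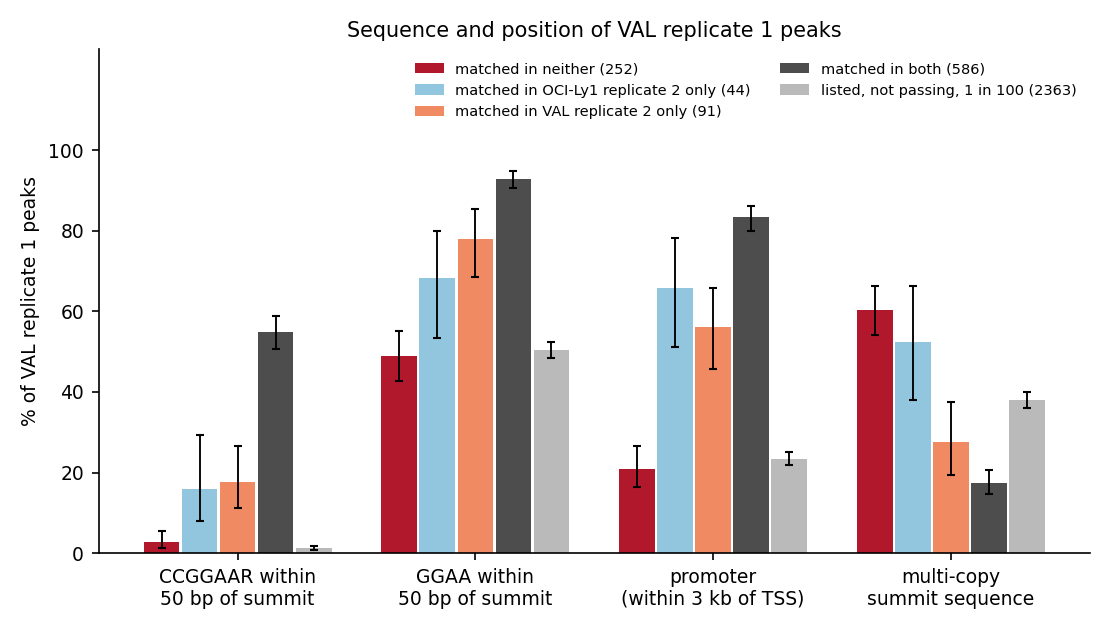
Share of VAL replicate 1 peaks (percent) with CCGGAAR or GGAA within 50 bp of the summit, within 3 kb of a TSS and with a multi-copy summit sequence, for peaks matched in neither, in 1 or in both other libraries and for every 100th listed peak that did not pass, with Wilson 95% intervals as error bars. CCGGAAR rises from 2.78% of unmatched to 54.8% of shared peaks and promoters from 21.0% to 83.3%, while multi-copy sequence falls from 60.3% to 17.4%.

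Most unmatched peaks lay away from promoters. A TSS was within 3 kb of the peak centre for 53 of 252 (21.0%, 16.5 to 26.5), against 488 of 586 shared peaks (83.3%, 80.0 to 86.1; Fisher exact test, adjusted p = 1.14e-66). Of all 252 unmatched peaks, a further 100 were in introns (39.7%), 1 in an exon, none in a UTR and 98 between genes (38.9%). The median distance to a TSS was 11332 bp for unmatched and 84.5 bp for shared peaks. Listed peaks that did not pass were in promoters in 23.4%. With TSS of protein-coding genes alone, the shares were 9.92% (25 peaks) and 71.7%.

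Position and motif went together. All 7 motifs were among the 53 promoter peaks (13.2%), where 62.7% of the shared promoter peaks had one (Fisher exact test, adjusted p = 3.55e-12). None of the 199 distal unmatched peaks had the motif, which allows a share of up to 1.51% (3 counts of the total), against 15 of 98 distal shared peaks (15.3%, adjusted p = 2.77e-08 by the Fisher exact test). Of the 66 regions with no listed peak elsewhere, 0 had the motif (up to 4.55%), and of the 105 listed in both other libraries, 6 did (5.71%).

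At the promoter of POFUT2, which encodes a protein O-fucosyltransferase, the unmatched peak had 18 reads over a background of 2.34 and a -log10 q of 6.07. The listed peaks there had 5 reads in VAL replicate 2 and 2 in OCI-Ly1 replicate 2, with a -log10 q of 1.82 and 0.344. At ADAT2, the catalytic subunit of a tRNA adenosine deaminase, the 3 libraries had 16, 6 and 7 reads and a -log10 q of 5.35, 2.70 and 2.50, in the order VAL replicate 1, VAL replicate 2 and OCI-Ly1 replicate 2. The TSS lay 23 bp from the peak centre at POFUT2 and 45 bp at ADAT2.

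The TMEM234 peak lay 2 bp from its TSS, inside the annotated gene EIF3I, a subunit of translation initiation factor eIF3. It had 13, 3 and 5 reads in the same order and a -log10 q of 4.57, 0.952 and 0.875. GFOD2 had 16, 4 and 5 reads and a -log10 q of 4.46, 1.17 and 1.61. Since the rule required a passing peak in VAL replicate 1 and none in the others, the order of these read counts is no finding. The commonest background of VAL replicate 1, 0.526 reads, was also above the 0.278 of VAL replicate 2 and the 0.283 of OCI-Ly1 replicate 2.

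The other coding promoters with the highest values had no motif. PCSK5, a proprotein convertase, led with a -log10 q of 6.09 on 11 reads, but its summit sequence had a median of 2217 copies and belonged to the group of 13. ZNF367, a zinc finger gene, had 5.72 on 14 reads in single-copy sequence, with 4 reads in VAL replicate 2 and 5 in OCI-Ly1 replicate 2. INTS1, of the Integrator complex, had 5.0 on 15 reads, and ZFP82 and ZFAND2A had 4.76 and 4.52, the last 3 in multi-copy sequence.

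The unmatched peaks reached the promoters of 30 of 20145 protein-coding genes (0.149%), so lists of this size could hold none at that share. None of 18 B cell receptor and co-receptor genes, 28 NF-kB pathway genes, 19 germinal centre and plasma cell genes and 16 ETS factor genes had one within 3 kb of a TSS. The shared peaks of the same library reached PTPN6 of the B cell receptor list, none of the NF-kB list, MEF2B of the germinal centre list, and ELF2 and ELK4 of the ETS list. VAL replicate 1 had 973 passing peaks in all, against 6474 in VAL replicate 2. The paper reports FLI1 binding at the promoter of ASB2, a gene of the NF-kB list. With genes of other types, the unmatched promoter peaks reached 64 genes, among them 10 lncRNA genes and 19 pseudogenes, and the shared peaks reached 824, of which 544 were protein coding (2.70% of all protein-coding genes). INTS1, the pseudogene REXO1L11P and the symbol Y_RNA, which several loci carry, were in both sets.

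The sequence under the summits was repeated more often in the unmatched than in the shared peaks. A summit was called multi-copy where at least 50% of the words of 31 bases within 50 bp occurred more than once in GRCh37 on either strand. This held for 152 of 252 unmatched peaks (60.3%, 54.2 to 66.2) and 102 of 586 shared peaks (17.4%, 14.6 to 20.7; Fisher exact test, adjusted p = 7.31e-34). It also held for 23 of the 44 peaks matched in OCI-Ly1 replicate 2 only (52.3%, 37.9 to 66.2), whose interval overlaps that of the unmatched peaks, for 27.5% of the 91 matched in VAL replicate 2 only and for 37.9% of the listed peaks that did not pass. Among distal peaks alone the difference was smaller: of these, 120 of 199 unmatched (60.3%) and 48 of 98 shared (49.0%) were multi-copy, which did not pass the Fisher exact test (adjusted p = 0.0811). At promoters the shares were 60.4% and 11.1%.

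Many of these words were abundant. The median word occurred 10 or more times at 93 unmatched summits (36.9%) and 1000 or more times at 29 (11.5%), with a maximum of 14749, against 46 (7.85%) and 1 (0.171%) of the shared summits. Of the peaks matched in OCI-Ly1 replicate 2 only, 38.6% reached 10 copies, and of those matched in VAL replicate 2 only, 22%. Of the examined listed peaks that did not pass, 23.5% reached 10 copies and 4.70% reached 1000, with a maximum of 19071. Words of 10 or more copies, and of 1000 or more, were thus not particular to the unmatched peaks. Every word was unique at 61 unmatched summits (24.2%) and at 77.1% of the shared ones. The methods of the paper keep only reads that map once, but the settings behind the deposited lists are not given. Under that filter, a read in such a window would be placed by bases outside the repeated words or by differences between copies. The part of repeated sequence in the lack of matches was not tested.

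**Figure D3:**
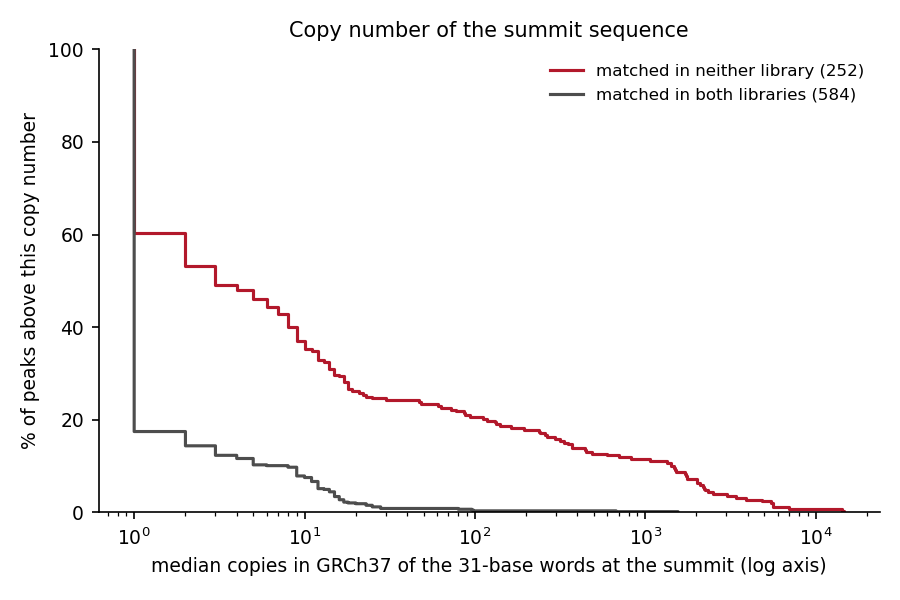
Percent of peaks whose summit sequence exceeds a given median copy number in GRCh37 (log axis), for the 252 unmatched peaks and the shared peaks, of which 2 with summits in assembly gaps are left out. At 1 copy the curves stand at about 60.3% and 17.4%. Of these 2 curves, only that of the unmatched peaks extends above 10000 copies. Listed peaks that did not pass, which reached 19071, are not drawn.

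Without the multi-copy peaks the other contrasts were as large. Of the 100 unmatched peaks in other sequence, 6 held the motif (6.0%) and 21 were in promoters (21.0%), and of the 484 shared peaks, 62.4% and 89.7% (Fisher exact tests, adjusted p = 9.39e-28 and 3.95e-43). The median GC content within 50 bp of the summit was 57.4% for unmatched, 66.3% for shared and 54.5% for listed peaks that did not pass, and the median number of CpG was 2, 9 and 2.

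Most of the strongest unmatched peaks lay close to others. Of the 10 with the highest -log10 q, 8 had another unmatched peak within 50 kb, 6 were on chromosome Y, and none held the motif. The highest was at chr18:108013-110038, 39 bp from the TSS of the lncRNA gene ROCK1P1, with 582 reads over a local background of 295, a fold of 1.97 and a -log10 q of 42.4. The 30 bases around its summit, chr18:108239-108268 on the plus strand, are shown as an example of a summit with no GGAA: ttgcctggtctctgcctactggggacattg. Neither other library listed a peak there.

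On chromosome Y, 7 unmatched peaks lay within 37.9 kb at chr Y 13448260 to 13486130, around DUX4L16, DUX4L17, DUX4L18 and DUX4L19, annotated pseudogenes of the DUX4 family. They had 30 to 138 reads over backgrounds of 5.19 to 47.9, folds of 1.95 to 5.01 and a -log10 q of 3.43 to 20.2. Of the 8 passing peaks of that stretch these were 7, and none was shared. Another 3 lay at 58976904 to 58994349 of the same chromosome, with folds of 3.43 to 4.93.

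Crowding of this sort also occurred where shared peaks were present. At chr8:86732696-86808934, near the REXO1L pseudogenes, 7 of 20 passing peaks were unmatched and 11 shared, and at chr4:49284925-49329380 it was 4 of 13 and 8. In all, 31 unmatched peaks (12.3%) had another within 50 kb, in 9 clusters, and 25 of the 29 unmatched peaks with a fold under 4 were among them. Their median background was 13.1 reads, against 1.0 for the 221 outside clusters. Of those 221, 127 were multi-copy and 7 held the motif. A fold under 4 was not particular to the unmatched peaks, of which 11.5% had one. It occurred in 12.3% of shared peaks, 14.3% of those matched in VAL replicate 2 only and 38.6% of those matched in OCI-Ly1 replicate 2 only. Clusters were sought among the unmatched peaks alone, so their share has no comparison.

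Strong peaks outside the clusters had a higher fold. At chr2:10880-11191, between genes, 18 reads over 1.84 gave a fold of 6.69 and a -log10 q of 7.71. There were 2 reads in VAL replicate 2 and 4 in OCI-Ly1 replicate 2. The summit sequence had a median of 10 copies, and an assembly gap lay 1.04 kb away. At chr4:190741273-190741976, in the lncRNA gene FRG1-DT, the peak had 15 reads over 1.0, a fold of 7.98 and a -log10 q of 8.53. Its summit sequence had a median of 7 copies. VAL replicate 2 had 5 reads and a -log10 q of 1.82 there, and OCI-Ly1 replicate 2 had no listed peak. At chr1:183417346-183417706, between genes, 12 reads over 0.670 gave a fold of 7.79 and a -log10 q of 7.27 in single-copy sequence, and neither other library listed a peak. Its summit, chr1:183417463-183417492 on the plus strand, reads gatgctgccaggctgtcaactccttcaggc, and GGAA lay within 50 bp of it but outside these 30 bases.

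Of the unmatched and the shared peaks, 24 of 252 (9.52%, 6.48 to 13.8) and 62 of 586 (10.6%, 8.34 to 13.3) lay within 100 kb of a gap of at least 10 kb, against 2.79% of listed peaks that did not pass. By chromosome, 22 unmatched peaks were on chromosome 2 (8.73%, against 7.17% of the shared peaks) and 17 on chromosome 8 (6.75%, against 8.36%). Chromosome X held 15 of them (5.95%) and 10 shared peaks (1.71%), and chromosome Y 10 (3.97%) and 4 (0.683%). On the autosomes alone the differences in motif, promoter and multi-copy shares were -52.2, -62.7 and 42.7 percentage points, each past the Fisher exact test.

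The tests treat peaks as independent, which peaks of 1 cluster or 1 sequence group are not, and all of them come from 1 library. The size of each contrast depends on the overlap rule. Where a match must cover 50% of both peaks, 486 peaks are unmatched and 25.3% of them hold the motif. The differences from peaks matched in both other libraries by that rule are -23.7 percentage points for motif, -23.4 for promoters and 15.2 for multi-copy sequence.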

How the data were processed

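FLI1 ChIP-Seq peak lists of VAL and OCI-Ly1 were analysed, 1 list per library. The authors mapped reads to GRCh37 with bowtie2 and kept, with SAMtools, reads that map once, have a mapping quality of 10 or more and are no duplicates. The submitters' notes also list hg19, CASAVA 1.4 and BWA. HOMER with an FDR of 0.001 is the peak caller of the methods, but the lists have the 10 columns that MACS2 writes, and their caller, control and settings are not given in the sources used here. The deposited fold enrichment was taken to be a ratio of summit pileup to local background, which these sources do not state. The deposited -log10 p and -log10 q are the caller's values for each summit. The deposited score is 10 times the -log10 p and was not used. Sequencing depth is not known from the lists. Precision is limited by the fewest reads of a passing peak, 8 in VAL replicate 1 and 6 in the other 2 libraries.

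The unmatched peaks and the gene lists were chosen with earlier results of these data known. Reads n and background b were solved from a fold of (n + 1) / (b + 1) and a Poisson p-value, which succeeded for all 973 passing peaks of VAL replicate 1. Peak centres were assigned from GENCODE release 44 (GRCh37) to promoters (3 kb) first, then to UTRs, exons, introns and the rest. Words of 31 bases were counted over the whole reference on both strands. The motif was compared with a control window by a two-sided exact McNemar test. The 3 comparisons with shared peaks used two-sided Fisher exact tests with Benjamini-Hochberg adjustment. Intervals are Wilson 95% intervals and cover counting error only. Named peaks were the 10 with the highest -log10 q, the 10 at coding promoters, those with the motif, the 5 with no listed peak elsewhere, each by -log10 q, and those nearest the threshold. The alternatives changed thresholds, the overlap rule, the motif, windows, the promoter definition, word length and the libraries. The steps were tested on simulated data. Python 3.11.15, numpy 2.4.6, pandas 2.3.3 and scipy 1.17.1 were used. The sequences shared by groups of unmatched peaks are not reported here.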

Additional observations from a re-analysis of the deposited data

How the results depend on the processing

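The number of unmatched peaks, 252, became 35 with a -log10 q of at least 5 in VAL replicate 1, 66 where every listed peak counted as a match and 486 where a match had to cover 50% of both peaks. Without VAL replicate 2 or OCI-Ly1 replicate 2 it was 296 to 343, and without VAL replicate 1 there is no such peak. The motif share minus that of the control window, 1.59 percentage points, reversed to -7.54 with GGAA as the motif (exact McNemar p = 0.0785). Without 1 of the other libraries it was 2.70 to 5.25, the higher value without VAL replicate 2 (exact McNemar p = 2.77e-04 over 343 peaks). Those 343 include the 91 peaks matched in VAL replicate 2 only. With 1 library left out, the comparison was with all peaks matched in the remaining library. The differences were then -45.4 to -45.0 percentage points for the motif, -51.9 to -51.7 for promoters and 31.8 to 40.4 for multi-copy sequence. For distal peaks only, the multi-copy difference from shared peaks was 11.3 points (Fisher exact, adjusted p = 0.0811). Of 46 alternatives, 40 kept the direction and the side of the threshold, or for counts stayed within 1.5 times. Those restricted to sequence that is not multi-copy, to autosomes and to peaks outside clusters were chosen after seeing the data. No paired analysis was possible because OCI-Ly1 replicate 1 has no usable list, and no test compared groups of libraries. The causes were not tested.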

Other observations

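The 1 passing interval of OCI-Ly1 replicate 1 covers 22 of the 252 unmatched peaks, which are all of those on chromosome 2, and 41 shared peaks. Where that interval counted as a match, 230 unmatched peaks were left.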
